A study of Macaca mulatta with 2 samples.

Results

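The matrix metalloproteinases (MMPs), their tissue inhibitors (TIMPs), the ADAMTS proteases and the ADAMTS-like proteins were described in the optic nerve of the rhesus macaque. The genes were chosen by symbol alone, and 51 of the 16684 genes of the deposited table belonged to them: 23 MMP, 4 TIMP, 19 ADAMTS and 5 ADAMTSL genes. RNA-seq of wild-type, untreated nerves gave 2 libraries of 1 condition, named Rep1 and Rep2, with no treated or control group. In the methods the nerves come postmortem from 1 male animal aged 12 years, whereas the deposited design describes nerves of 2 macaques. The libraries are therefore nerves of 1 or of 2 animals, and nothing ties a column to an individual sample title. Levels are in TPM, a share of all length-corrected reads of the library, so that levels of different genes can be compared. With 1 condition no test between groups exists, and an exact two-sided sign test over 2 libraries cannot go below p = 0.5. Values are therefore given per library, as a mean ± SD, and as counts beside the same counts over all genes.

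MMPs are zinc-dependent enzymes that cut collagens, laminins and other proteins around cells. Most are made as inactive precursors, and some are anchored in the cell membrane. TIMPs block them by placing their N-terminal cysteine on the zinc of the active site. ADAMTS enzymes share the zinc site and cut proteoglycans such as aggrecan and versican, the ends of procollagens, or other single substrates, whereas ADAMTS-like proteins have no catalytic domain. In the optic nerve, matrix turnover by these families has been studied mainly at the nerve head in glaucoma and after injury.

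The sites that define inhibitor and enzyme are shown because the levels below turn on the balance of these groups. The 4 TIMP sequences were read from the RefSeq coding sequences of Mmul_10 and start at the cysteine codon that opens the mature inhibitor, with cysteine codons in capitals. Their positions are X:47529771-47529809 (plus strand, exon 2 of *TIMP1*), 16:75248764-75248802 (minus strand, exon 1 of *TIMP2*), 10:18703038-18703076 (minus strand, exon 1 of *TIMP3*) and 2:143533640-143533678 (minus strand, exon 1 of *TIMP4*).
TIMP1: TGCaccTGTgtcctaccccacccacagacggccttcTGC
TIMP2: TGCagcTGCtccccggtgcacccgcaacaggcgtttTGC
TIMP3: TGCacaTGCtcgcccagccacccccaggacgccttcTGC
TIMP4: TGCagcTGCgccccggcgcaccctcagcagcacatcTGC
The zinc-binding site of the most abundant secreted and membrane-anchored MMPs and of the most abundant ADAMTS enzymes follows, with the histidine codons that hold the zinc in capitals. It lies at 20:42621195-42621227 (plus strand, exon 8 of *MMP2*), 7:84862885-84862917 (plus strand, exon 5 of *MMP14*), 3:19832236-19832965 (plus strand, *ADAMTS1*, spliced across the intron after exon 3) and 6:176546991-176547625 (minus strand, *ADAMTS2*, spliced across the intron after exon 7).
MMP2: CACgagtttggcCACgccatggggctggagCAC
MMP14: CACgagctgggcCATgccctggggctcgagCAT
ADAMTS1: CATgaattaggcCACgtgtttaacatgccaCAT
ADAMTS2: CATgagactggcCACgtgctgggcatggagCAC
The zinc site, searched in the translated coding sequence with a glycine or an asparagine before its last histidine, was found in 23 of 23 MMP and 18 of 19 ADAMTS genes. It was found in 0 of 4 TIMP and 0 of 5 ADAMTSL genes, and in 62 of all 16275 coding sequences searched (0.381%). The exception was the coding sequence chosen for *ADAMTS8*, and a missing match says only that this sequence does not hold these residues. The form with asparagine, which *ADAMTS1*, *ADAMTS4*, *ADAMTS9* and *ADAMTS15* carry, was added after the first search.

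The depth of the libraries bears on every value below. Over 10168 genes above 0 in both libraries, the ratio of the TPM values gave whole reads for 99.9% when 1 read of Rep1 was worth 17.2 reads of Rep2. The smallest read numbers these ratios allow were 1 to 619 per member in Rep1, with a median of 3, and 5 to 6193 in Rep2, with a median of 214. They are lower bounds and hold for the 25 members above 0 in both libraries. By the worth of a read, Rep1 was the shallower library. The libraries also differed in makeup. The 8 fibroblast and meningeal markers summed to 2029 in Rep1 and 17527 TPM in Rep2, and all 8 were at least 2-fold higher in Rep2. Of all genes above 0, 51.3% were as well. The 8 oligodendrocyte markers, which mark the tissue as white matter, summed to 46022 in Rep1 and 212406 TPM in Rep2. Most of this came from *MBP*, at 43721 and 199595 TPM, while *CLDN11*, the lowest, was at 15.3 and 72.2 TPM. In contrast, the 10 photoreceptor markers, of retinal and not of nerve cells, summed to 3345 in Rep1 and 30.8 TPM in Rep2, with *CRX* at 0 in Rep2. The 8 neuron markers summed to 2098 TPM and 150 TPM, mostly from *SNAP25* and *SYT1* in Rep1. At least 2-fold higher in Rep1 were 5 of the 10 photoreceptor and 4 of the 8 neuron markers, against 14.8% of all genes above 0. Higher in Rep2 were 2 photoreceptor and 3 neuron markers. The part of this makeup in the levels below was not tested, and in bulk RNA fewer cells of a type cannot be told apart from less RNA per cell.

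TIMP transcripts made up most of the family's RNA in both nerves. The 51 genes summed to 540 in Rep1 and 1782 TPM in Rep2. TIMPs held 62.3% of this sum in Rep1 and 67.6% in Rep2, the MMPs 27.6% and 15.05%, the ADAMTS enzymes 5.43% and 9.96%, and the ADAMTS-like genes 4.64% and 7.38%. The order TIMP, MMP, ADAMTS, ADAMTS-like was the same in both libraries.

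**Figure D1:**
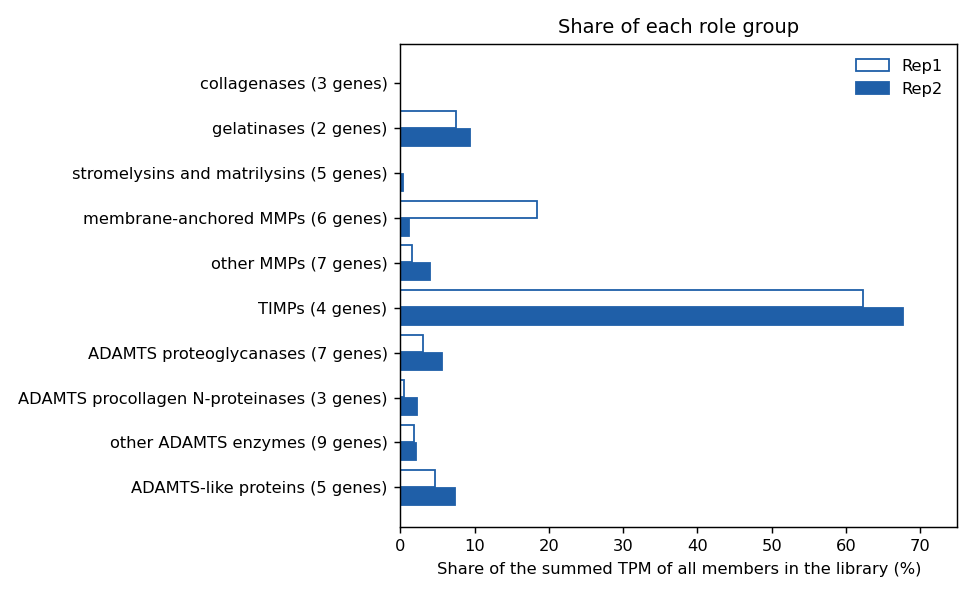
Share of each role group in the summed TPM of all 51 members (x axis, %), with open bars for Rep1 and filled bars for Rep2. TIMPs hold 62.3% and 67.6%, and the group of membrane-anchored MMPs holds 18.4% in Rep1 and 1.24% in Rep2. *MMP23B* is counted with the other MMPs.

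*TIMP1*, a secreted inhibitor of most soluble MMPs, was at 141 in Rep1 and 969 TPM in Rep2. Its mean of 555 ± 586 TPM (SD, n = 2 libraries) was the highest of the 51 genes and stood at percentile 98.4 of all genes above 0. Rep2 was the higher library, and the values rest on at least 36 and 4265 reads. *TIMP2*, which inhibits MMPs and also forms the complex through which *MMP14* activates the precursor of MMP2, was at 180 in Rep1 and 78.2 TPM in Rep2, or 129 ± 72.3 TPM. Here Rep1 was the higher library, from at least 619 and 4609 reads, so that *TIMP2* led the family in Rep1 and *TIMP1* in Rep2. *TIMP3*, the inhibitor that binds to the matrix and also blocks ADAM and ADAMTS enzymes, was at 14.6 TPM and 155 TPM, or 84.6 ± 99.0 TPM. Rep2 was 10.6-fold higher, from at least 34 and 6193 reads. *TIMP4* was the low member, at 1.20 TPM and 3.24 TPM, with at least 2 and 93 reads.

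The order among the TIMPs held only in part. *TIMP1* was above *TIMP3* in both libraries, by 9.63-fold in Rep1 and 6.26-fold in Rep2, and *TIMP3* was above *TIMP4* by 12.2-fold and 47.7-fold. *TIMP1* over *TIMP2* was 0.779 in Rep1 and 12.4 in Rep2, so their order turned. A measure of the spread of 1 library was taken from the 200 genes nearest in mean level. It includes the shift between the libraries that these genes share, which makes a gap in SDs smaller. By this measure, the gap between *TIMP3* and *TIMP4* was 2.38 SDs, and that between *TIMP1* and *TIMP2* was 0.932 SDs. *TIMP1* made up 41.7% of TIMP transcripts in Rep1 and 80.4% in Rep2, and *TIMP2* 53.6% and 6.49%.

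Each of 3 TIMP genes lies within a synapsin gene on the other strand, sharing no exon bases. *TIMP1* (X:47528707-47532407, plus strand) lies in *SYN1*, at 18.9 in Rep1 and 2.65 TPM in Rep2. *TIMP3* (10:18645380-18703187, minus strand) lies in *SYN3*, listed at 0 in Rep1 and at 7.61 TPM in Rep2. *TIMP4* (2:143528019-143534275, minus strand) lies in *SYN2*, at 3.96 TPM and 0.308 TPM. Synapsins coat synaptic vesicles, and *TIMP1* and *TIMP4* were higher in Rep2 while *SYN1* and *SYN2* were higher in Rep1. *TIMP3* and *SYN3* were both higher in Rep2. *TIMP2* (16:75177672-75249178, minus strand) shares 132 exon bases with *CEP295NL* on its own strand, which the table did not list. Whether strand or shared reads were used in counting is not given in the sources used here, so reads on the bases *TIMP2* and *CEP295NL* share cannot be told apart.

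Among the proteases, *MMP2* and *MMP14* led, in different libraries. *MMP2*, gelatinase A, which cuts denatured collagen and basement membrane collagen, was at 40.5 in Rep1 and 167 TPM in Rep2, or 104 ± 89.4 TPM. Rep2 was 4.12-fold higher, from at least 56 and 3967 reads. *MMP9*, gelatinase B and a product of neutrophils among others, was near the floor at 0.423 TPM and 0.123 TPM, from at least 1 and 5 reads. Neutrophil markers were low as well: the 8 listed summed to 0 in Rep1 and 10.8 TPM in Rep2, with *S100A12*, *CXCR2* and *ELANE* at 0 in both.

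*MMP14*, the membrane-type enzyme that activates the precursor of MMP2 at the cell surface, was at 70.0 in Rep1 and 8.35 TPM in Rep2, or 39.2 ± 43.6 TPM. Unlike most of the family it was higher in Rep1, by 8.39-fold, from at least 41 and 84 reads. *MMP16*, another membrane-type enzyme, was at 28.0 TPM and 10.8 TPM, also higher in Rep1, from at least 30 and 199 reads. The other members grouped as membrane-anchored were low: *MMP17* and *MMP24* were below 2 TPM in both libraries, and *MMP15* and *MMP25* were listed at 0 in Rep1. Together the 6 MMPs of this group summed to 99.6 in Rep1 and 22.1 TPM in Rep2, which was 18.4% and 1.24% of the family. *MMP23B*, at 5.10 in Rep1 and 41.3 TPM in Rep2, was counted with the other MMPs and is not in these sums. *MMP2* over *MMP14* was 0.578 in Rep1 and 19.99 in Rep2, a gap of 1.02 SDs. *MMP2*, *MMP14* and *MMP16* together held 92.8% of MMP transcripts in Rep1 and 69.4% in Rep2. With *TIMP2*, *MMP14* and *MMP2* both listed in each library, all genes of the MMP2 activation complex were present, at 180, 70.0 and 40.5 TPM in Rep1 and at 78.2, 8.35 and 167 TPM in Rep2.

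A second tier of MMPs was higher in Rep2. *MMP23B* was at 5.10 in Rep1 and 41.3 TPM in Rep2, from at least 1 and 139 reads. *MMP28*, epilysin, was at 2.62 TPM and 16.6 TPM. *MMP19* was at 1.03 TPM and 13.03 TPM, from at least 1 and 217 reads. For *MMP23B* and *MMP19* in Rep1, 1 read is only the lower bound, and the actual read numbers are not known. *MMP28* shares 61 exon bases with *TAF15*, which was at 66.2 in Rep1 and 33.6 TPM in Rep2.

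**Figure D2:**
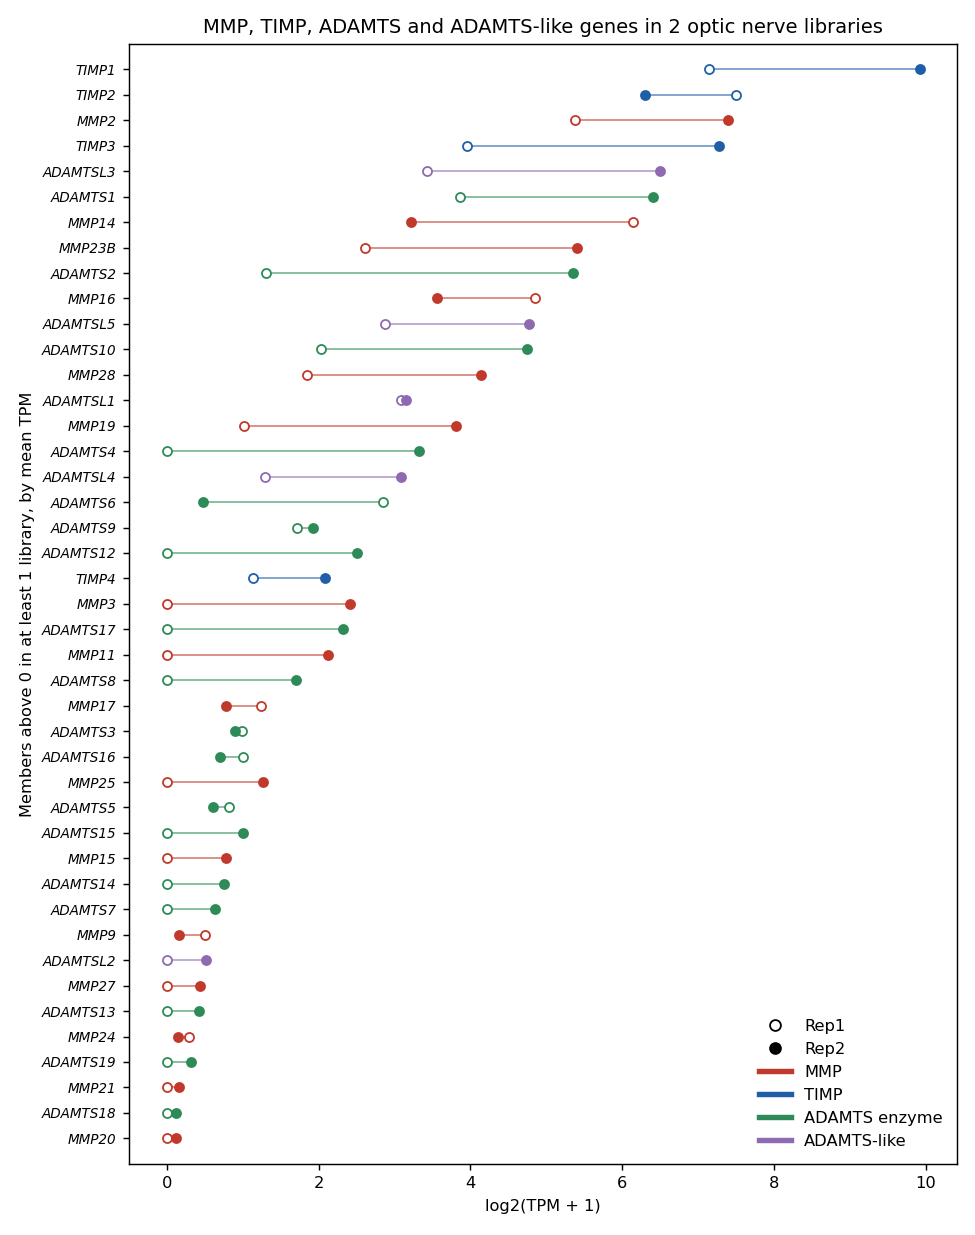
Levels of the 43 members above 0 in at least 1 library (x axis, log2(TPM + 1)), ordered by mean TPM, with open circles for Rep1, filled circles for Rep2 and colour for the family. *TIMP1* has the highest mean, at 555 TPM, and *TIMP2*, *MMP14*, *MMP16* and *ADAMTS6* have their open circle at least 1 unit to the right of the filled one.

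The collagenase group, in which *MMP2* and *MMP14* were not counted, was listed at 0, and the stromelysins and matrilysins were low. *MMP1*, *MMP8* and *MMP13*, which are among the enzymes that cleave native fibrillar collagen, had this value in both libraries. So did *MMP7* (matrilysin), *MMP10* (stromelysin 2), *MMP12* (macrophage elastase), *MMP26* and *ADAMTS20*. These 8 members at 0 in both are 15.7% of 51, against 11.9% of all genes listed. In this group *MMP3* (stromelysin 1) was at 0 and 4.32 TPM, and *MMP11* (stromelysin 3) at 0 and 3.35 TPM. In the genome, 9 of the MMP genes stand side by side on chromosome 14 between 95787576 and 96225075. None of these 9 was above 0 in Rep1 and 3 were in Rep2, namely *MMP3*, *MMP27* at 0.361 TPM and *MMP20* at 0.0868 TPM. The other 6 are among the 8 members at 0 in both, so they are not a separate count. Of all genes listed, 26.6% were at 0 in Rep1 only and 11.9% at 0 in both. The microglia and macrophage markers summed to 224 in Rep1 and 499.5 TPM in Rep2, but not all were well above the floor in Rep1. In Rep1 *AIF1* and *CSF1R* were at 113 and 61.3 TPM, and *C1QA* and *C1QB* at 15.2 and 30.3 TPM. There *CX3CR1*, *P2RY12* and *CD68* were at 0.947, 0.725 and 2.97 TPM, and *CD163* was at 0.

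Among the 19 ADAMTS enzymes, *ADAMTS1* stood highest. This enzyme, which cuts aggrecan and versican, was at 13.5 in Rep1 and 83.6 TPM in Rep2, or 48.6 ± 49.6 TPM, from at least 3 and 319 reads. Its share of ADAMTS transcripts was nearly equal in both, at 46.0% and 47.1%. The other aggrecanases were low, with *ADAMTS4* at 0 and 8.998 TPM and *ADAMTS5* at 0.763 and 0.520 TPM. The zero of *ADAMTS4* in Rep1 was shared by 22.0% of the 200 genes nearest to it in Rep2 level. *ADAMTS4* and *ADAMTS5* are the main aggrecanases of cartilage, and *ADAMTS5* lies beside *ADAMTS1* on chromosome 3.

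*ADAMTS2*, which removes the N-terminal propeptide of fibrillar procollagens, was at 1.49 in Rep1 and 39.8 TPM in Rep2. It was 26.8-fold higher in Rep2, from at least 1 and 460 reads, and it shares 478 exon bases with *ZNF354C*. The actual read number in Rep1 is not known. The fibroblast markers, *COL1A1*, *COL1A2* and *COL3A1* among them, moved in the same direction, with a median difference of -2.84 on the log2(TPM + 1) scale, Rep1 minus Rep2. Their part in the *ADAMTS2* difference was not tested. Of the other procollagen enzymes, *ADAMTS3* was at 0.986 and 0.860 TPM and *ADAMTS14* at 0 and 0.688 TPM. *ADAMTS10*, which binds fibrillin microfibrils and is mutated in Weill-Marchesani syndrome and in an inherited glaucoma of dogs, was at 3.08 TPM and 25.9 TPM, or 14.5 ± 16.2 TPM. *ADAMTS17*, mutated in a related syndrome, was at 0 and 4.02 TPM. *ADAMTS6* alone among the ADAMTS genes was at least 2-fold higher in Rep1 on the log2(TPM + 1) scale, at 6.23 in Rep1 and 0.388 TPM in Rep2, from at least 14 and 15 reads.

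The 5 ADAMTS-like genes summed to 25.1 in Rep1 and 131.6 TPM in Rep2, against 29.3 and 177.5 TPM for the 19 ADAMTS enzymes. *ADAMTSL3* was at 9.74 in Rep1 and 89.3 TPM in Rep2, or 49.5 ± 56.3 TPM, from at least 5 and 788 reads. It was close to *ADAMTS1* in both libraries, at 0.721 of its level in Rep1 and 1.07 of it in Rep2. *ADAMTSL5* was at 6.37 and 26.5 TPM. *ADAMTSL4*, mutated in inherited lens displacement, was at 1.45 and 7.47 TPM, and both were higher in Rep2. *ADAMTSL1* was nearly level, at 7.49 and 7.92 TPM, or 7.71 ± 0.30 TPM. Scaling by the median of ratios turned its difference from -0.07 to 0.98 on the log2 scale.

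Neighbours in the order of levels had overlapping ranges. Of the 42 pairs of neighbours in mean level, 0 had ranges that lay apart, a range running from the lower to the higher library. A shift shared by both genes of a pair widens both ranges, and this rule does not use that pairing. Some neighbours, such as *MMP2* over *TIMP3*, kept their order in both libraries, while others, such as *TIMP1* and *TIMP2*, did not. Over all 903 pairs of the 43 members above 0, 57.1% had ranges apart, 66.2% had the same order in both libraries and 16.8% the opposite order. The rest held a tie at 0. Spearman's rho between the libraries was 0.702 over these 43 genes and 0.719 over all genes. The points of each correlation share their libraries, so this is a description.

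Most members that differed between the libraries were higher in Rep2, as were most other genes. On the log2(TPM + 1) scale, 4 of the 43 members above 0 (9.30%) were at least 2-fold higher in Rep1, against 14.8% of all genes above 0. In the other direction, 20 of 43 (46.5%) were at least 2-fold higher in Rep2, against 51.3%. The remaining 19 lay within 2-fold. The median difference of the members was -0.79, and that of all genes above 0 was -1.07. With the median-of-ratios scaling, a log2 shift of -1.19 between the libraries, 5 and 15 members passed, against 23.7% and 33.8% of all genes, and the medians were -0.54 and -0.38. *TIMP2* (1.20, and 2.38 after scaling), *MMP14* (2.93 and 4.03), *MMP16* (1.30 and 2.41) and *ADAMTS6* (2.38 and 3.05) were the 4 higher in Rep1 on both scales. The medians of the role groups ran from -2.27 for the 2 stromelysins above 0 to 0.31 for the membrane-anchored group, which leaves out *MMP23B*. Between them lay -1.86 for the TIMPs and -1.79 for the ADAMTS-like genes. After the median of ratios the stromelysins were at -1.82, the membrane-anchored group at 0.69, the TIMPs at -0.88 and the ADAMTS-like genes at -0.80. Medians of groups with low genes also depend on the pseudocount: with 0.1 in place of 1, that of the stromelysins was -5.29.

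**Figure D3:**
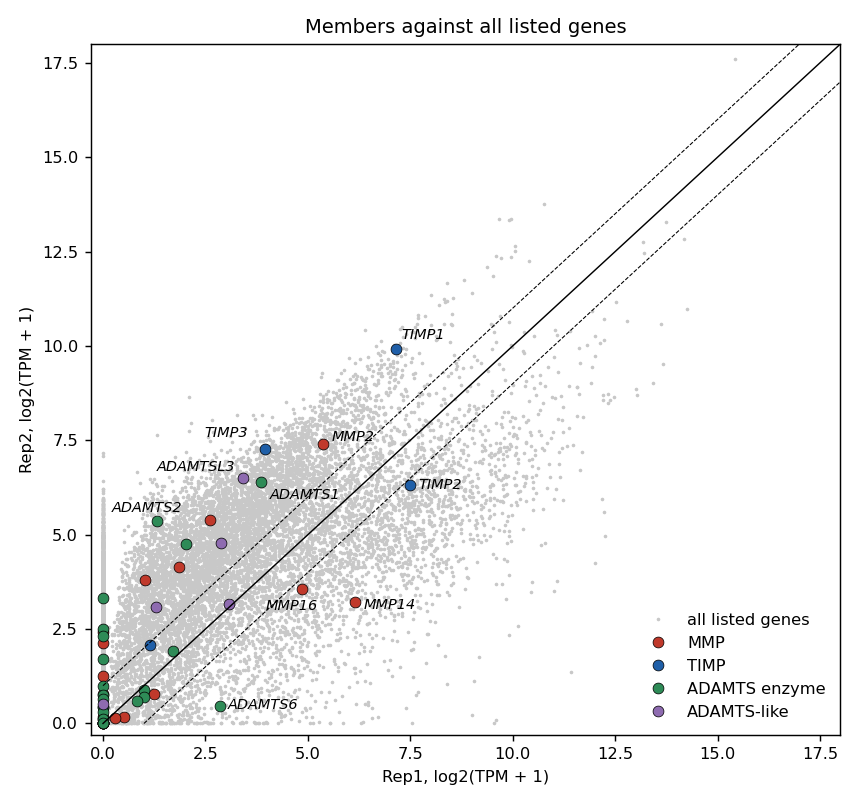
Rep1 (x axis) against Rep2 (y axis), both in log2(TPM + 1), with grey points for all listed genes, coloured points for the members, a solid line for equal levels and dashed lines for 2-fold differences. *MMP14*, *MMP16*, *TIMP2* and *ADAMTS6* lie below the lower dashed line, and 20 members lie above the upper one.

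Fewer members were above 0 in the shallower library. In Rep1, 25 of 51 members (49.0%) were above 0, and in Rep2 43 (84.3%). Zeros were common over all 16684 genes as well, with 26.6% at 0 in Rep1 only and 11.9% at 0 in both. Of all genes, 10168 were above 0 in both libraries. The 18 members at 0 in Rep1 only (35.3%, against 26.6% of all genes) had Rep2 levels of 0.0868 to 8.998 TPM, with a median of 0.706 TPM. Among the 200 genes nearest to each in Rep2 level, 22.0% to 89.5% were also at 0 in Rep1, with a median of 70.0%. At least 1 TPM in both libraries was reached by 18 members (35.3%), against 53.9% of all genes.

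The summed TIMPs exceeded the summed MMPs in both libraries. The ratio was 2.26 in Rep1 and 4.49 in Rep2, or 3.37 ± 1.58 (SD, n = 2). Without *TIMP1* it was 1.31 in Rep1 and 0.880 in Rep2, so the excess in Rep2 rested on *TIMP1*. These are transcript ratios and give no protein or activity.

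Other genes of the pathway were taken from a list of activators, receptors and further inhibitors. Of its 21 listed genes, 20 were above 0 in at least 1 library. Of these 20, 0 were at least 2-fold higher in Rep1 and 19 in Rep2, against 14.8% and 51.3% of all genes above 0. Their median difference was -2.16. After the median of ratios 12 were at least 2-fold higher in Rep2, against 33.8% of all genes, and the median was -1.21. *BSG*, an inducer of MMPs on the cell surface, was the most abundant, at 88.0 in Rep1 and 668 TPM in Rep2. *RECK*, a membrane-bound inhibitor of MMPs, was at 8.05 and 30.0 TPM, and *FURIN*, the convertase that activates membrane-type MMPs, at 3.36 and 19.8 TPM. *LRP1*, the receptor that clears proteases bound to inhibitors, was at 67.0 and 135.7 TPM.

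Of the plasmin system, which activates several MMP precursors, the activator *PLAT* was at 10.7 in Rep1 and 56.8 TPM in Rep2. *PLAUR*, the receptor of the other activator, urokinase, was at 2.71 and 19.4 TPM, and plasminogen itself, *PLG*, was listed at 0 in both. The serine protease inhibitors *SERPINI1* and *SERPINE2* had 53.2 and 17.5 TPM in Rep1 and 221.0 and 43.8 TPM in Rep2. The testicans *SPOCK3*, *SPOCK1* and *SPOCK2*, proteoglycans of nervous tissue, had 15.7, 10.6 and 6.08 TPM in Rep1 and 69.4, 65.6 and 17.8 TPM in Rep2. Matrix and surface proteins on which MMPs act or dock, *FN1*, *CD44* and *TGFBI*, had 14.8, 4.09 and 11.5 TPM in Rep1 and 179.6, 124.5 and 85.8 TPM in Rep2. Apart from *PLG*, each partner gene named here was higher in Rep2.

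The ADAM sheddases are membrane relatives of the ADAMTS enzymes, and some are targets of *TIMP3*. They gave 1 gene of 9 at least 2-fold higher in Rep1 and 7 in Rep2, and 1 and 5 after the median of ratios. Over all genes above 0 the shares were 14.8% and 51.3% before scaling, and 23.7% and 33.8% after it. The 1 was *ADAM10*, the main sheddase of Notch and of the amyloid precursor, at 1243 in Rep1 and 76.7 TPM in Rep2, a log2 difference of 4.001. *ADAM12* was at 1.65 and 32.3 TPM, *ADAM15* at 7.53 and 18.4 TPM, and *ADAM9* at 2.90 and 19.8 TPM, all higher in Rep2. *ADAM10* alone thus exceeded the 540 TPM of the 51 members together in Rep1, but not their 1782 TPM in Rep2.

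**Figure D4:**
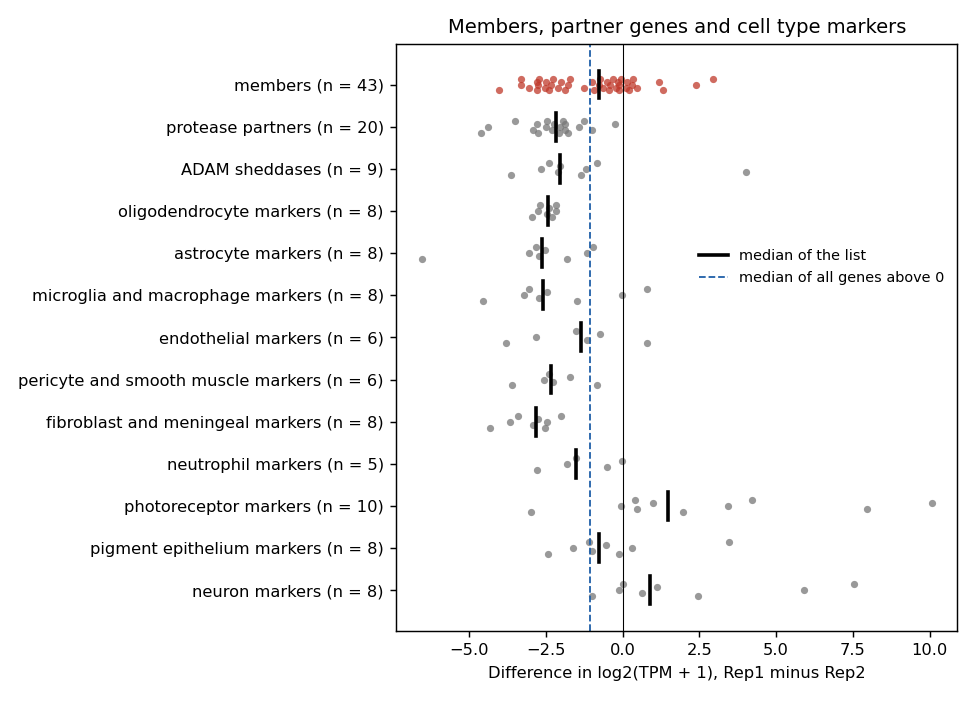
Difference between the libraries per gene (x axis, log2(TPM + 1), Rep1 minus Rep2) for the members, the partner genes, the ADAM sheddases and the cell type marker lists, with black bars for list medians and a dashed line for the median of all genes above 0. The members' median of -0.79 lies near the line at -1.07, the fibroblast markers lie at -2.84, and the photoreceptor (1.47) and neuron (0.87) markers lie to the right of 0.

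Before scaling, the marker lists of the cells that could hold these transcripts moved largely one way. Astrocyte markers summed to 1098 in Rep1 and 7329 TPM in Rep2, with 7 of 8 at least 2-fold higher in Rep2. Pericyte and smooth muscle markers summed to 219.9 and 1179 TPM, with 5 of 6 at least 2-fold higher in Rep2, and endothelial markers to 34.5 and 107.7 TPM, with 4 of 6 at least 2-fold higher there. Pigment epithelium markers summed to 130.5 and 119.7 TPM, with 1 of 8 at least 2-fold higher in Rep1 and 3 in Rep2. Microglia and macrophage markers were at least 2-fold higher in Rep2 in 6 of 8. Since 51.3% of all genes were as well, a shared direction ties no member to a list. After the median of ratios, 5 astrocyte, 4 pericyte and smooth muscle and 5 microglia and macrophage markers were at least 2-fold higher in Rep2. So were 2 endothelial and 1 pigment epithelium markers, against 33.8% of all genes. At least 2-fold higher in Rep1 were then 3 pigment epithelium, 2 microglia and macrophage and 1 endothelial markers, against 23.7%. Which cells carried the transcripts was not tested.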

How the data were processed

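Bulk RNA-seq libraries of untreated macaque optic nerve came from SMARTer v4 Ultra Low Input chemistry. Per the submitters' notes and the methods, the authors checked reads with FastQC 0.11.9, trimmed them with Trim Galore 0.6.6, aligned them to Mmul_10 with STAR 2.7.1a, counted them with featureCounts 1.5.3 and deposited TPM for 16684 genes in 2 libraries. Counts, gene lengths and the use of strand and of multimapping reads are not given in the sources used here. TPM depends on all genes of a library, so 1 abundant transcript lowers every other value. Library depth is unknown, apart from the relative value of a read.

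Scripts ran in Python 3.11 with scipy 1.17.1, pandas 2.3.3, numpy 2.4.6 and, for figures, matplotlib 3.10.9. Both columns were replicates of the condition, and since the sources conflict on whether they came from 1 or 2 animals, the SD may be technical. Differences are on the log2(TPM + 1) scale, which understates changes of low genes. The SD of 1 library came from the differences of the 200 genes nearest in mean log2(TPM + 1). These were taken about 0, so the SD includes the shift between the libraries. Read numbers are the smallest whole numbers that give the ratio of the libraries. The calculations were tested on simulated data. Symbols were matched to the RefSeq annotation of Mmul_10, where all 16684 were found. Alternatives were a pseudocount of 0.1, the median of ratios, other TPM thresholds, leaving out the 10 most abundant genes, and single libraries.

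Members, lists and alternatives were chosen with earlier results of these data known. The text names all TIMPs, the 15 other members of highest mean, members at least 2-fold higher in Rep1, members at 0 in both, partner and ADAM genes whose mean reached 10 TPM, and genes overlapping a TIMP. Further members, *PLG*, *TAF15*, *ZNF354C* and marker genes were named after their values were seen. *A2M*, *PZP* and *PCSK6* of the partner list and *FCGR3* of the neutrophil list were not used here. The values of 1 gene of the partner list are not reported here.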

Additional observations from a re-analysis of the deposited data

How the results depend on the processing

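With 2 libraries, the shallower of them Rep1, low members cannot be ranked, and a 0 in Rep1 does not show absence. No paired analysis was possible because there is 1 condition. Members at or above the threshold in both libraries numbered 18 at 1 TPM and after the median of ratios, 22 at 0.5 TPM and 11 at 5 TPM. In single libraries, chosen after seeing the data, they numbered 21 to 26. The median difference of the members, -0.79, was -2.29 with a pseudocount of 0.1, -2.20 among members with a mean of at least 1 TPM and -0.54 after the median of ratios. Members at least 2-fold higher in Rep2, 20 in all, numbered 29 with a pseudocount of 0.1 and 15 after the median of ratios. The TIMP to MMP ratio, 3.37, was 1.10 without *TIMP1* and 2.26 to 4.49 in single libraries. The mean of *ADAMTSL1* moved by more than its small SD, to 8.28 TPM after the median of ratios and 9.69 TPM without the 10 most abundant genes. The SD of 2 unlike libraries is so wide that other means hardly could: that of *MMP14*, 39.2 TPM, was 55.6 TPM after the median of ratios. A single library or a geometric mean always lies within 1 SD of the mean of 2, so neither says anything about its stability.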
